A study of Mus musculus with 16 samples.

Results

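Open chromatin of haematopoietic progenitors that carried Flt3-ITD together with heterozygous loss of Runx1 was compared with that of progenitors that carried Flt3-ITD alone. The labels call the cells hematopoietic progenitor/MPP, from mice 21 days old, with the genotypes Flt3-ITD/Runx1-het in 2 samples and Flt3-ITD in 2. Flt3-ITD was thus shared by both groups, and Runx1-het was the genotype that set them apart. Peaks of the 2 deposited lists on chromosomes 1 to 19 were taken, 119192 in Flt3-ITD/Runx1-het and 121180 in Flt3-ITD, and overlapping peaks were merged over both lists. This gave 93564 regions, against 118981 for the 8 lists of the series. Of these regions, 66912 (71.5%) held a peak in both lists, 14182 (15.2%) only in Flt3-ITD/Runx1-het and 12470 (13.3%) only in Flt3-ITD.

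Accessible DNA was mapped with ATAC-seq, an assay in which a transposase (Tn5) cuts and tags open chromatin, in 16 samples forming 8 groups of 2. Set 1 held wildtype, Flt3-ITD, Runx1-het and the Flt3-ITD/Runx1-het double mutant, and set 2 held wildtype, NUP98-HOXD13, Flt3-ITD and NUP98-HOXD13/Flt3-ITD, all 21 days old. Sample titles take a different form in each set, and no label explains what else separates the sets. Each group had 1 peak list for its 2 samples, so there was no spread between samples, no test between genotypes and no known read depth, and every difference below is one between 2 lists. The labels name no strain, no sorting markers, no Runx1 allele or Cre driver, and do not say whether mice were pooled.

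RUNX1 is the DNA-binding subunit of core-binding factor. It opens and maintains enhancers of lymphoid, megakaryocytic and granulocytic genes, and lowered RUNX1 activity is known in leukaemia and in inherited platelet disorders. FLT3 is a receptor tyrosine kinase of early progenitors, and its internal tandem duplication makes it signal without ligand through STAT5, MAPK and PI3K. RUNX1 mutations and FLT3-ITD occur together in acute myeloid leukaemia.

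Of the 8 progenitor genes taken as markers, 7 had a promoter in the RefSeq promoter table, and all 7 were open in both lists. The Flt3 promoter lay at percentile 99.3 of the Flt3-ITD list and 99.5 of the Flt3-ITD/Runx1-het list by −log10 p, where 100 is the strongest region of a list. The Kit promoter lay at 89.1 and 90.1, and the Cd34 promoter at 98.4 and 97.0. Promoters of more mature cell types were open in part. Granulocyte and monocyte genes had 14 of 21 open in each list, dendritic cell genes 9 of 14, and mast cell, basophil and eosinophil genes 7 of 14. Of the listed genes with a promoter in the table, 3 of 13 B cell genes were open in Flt3-ITD and 2 in Flt3-ITD/Runx1-het, and 10 and 8 of 18 T and NK cell genes. Of the 13 erythroid genes 5 were open in each list, and of the 11 stroma and endothelium genes 9 and 7. Which cells these open promoters came from was not tested.

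Promoter sequences are shown for 4 places where a shared region shifted in rank between the lists, each printed 5′ to 3′ from RefSeq (build GRCm38.p6) as 250 bases before to 50 after a transcription start. They were chosen after their values were seen, from promoters that overlap a shifted region of a listed gene. Capitals mark the RUNX core letters TGTGGT or their reverse complement ACCACA, which stood in 16.7% of all 31396 promoters in the table, with at least 2 such matches in 1.79%. A match is a match of letters, not a bound site. The first is the promoter of Rag1, a recombinase of B and T cell receptor genes, on the minus strand at chr2:101649483-101649782, whose region was weaker in Flt3-ITD/Runx1-het. The second is the promoter of the long non-coding gene Gm38856 on the plus strand at chr6:88152119-88152418, inside the region nearest to Gata2 that was stronger in Flt3-ITD/Runx1-het. The third is the promoter of Ly6c2, a monocyte and granulocyte surface gene, on the minus strand at chr15:75111888-75112187, overlapping a stronger region. The fourth is the promoter of Tek, the angiopoietin receptor of stem and endothelial cells, on the plus strand at chr4:94739039-94739338, overlapping a weaker region.
Rag1: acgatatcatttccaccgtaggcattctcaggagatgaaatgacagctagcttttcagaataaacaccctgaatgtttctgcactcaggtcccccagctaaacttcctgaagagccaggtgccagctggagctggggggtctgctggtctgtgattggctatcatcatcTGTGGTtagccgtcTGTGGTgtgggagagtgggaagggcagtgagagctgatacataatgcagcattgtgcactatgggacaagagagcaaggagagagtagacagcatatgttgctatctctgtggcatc
Gm38856: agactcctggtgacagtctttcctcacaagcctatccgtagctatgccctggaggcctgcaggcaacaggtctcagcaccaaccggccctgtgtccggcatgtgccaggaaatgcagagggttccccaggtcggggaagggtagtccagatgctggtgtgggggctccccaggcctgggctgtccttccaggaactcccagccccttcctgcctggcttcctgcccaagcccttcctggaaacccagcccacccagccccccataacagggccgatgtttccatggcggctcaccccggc
Ly6c2: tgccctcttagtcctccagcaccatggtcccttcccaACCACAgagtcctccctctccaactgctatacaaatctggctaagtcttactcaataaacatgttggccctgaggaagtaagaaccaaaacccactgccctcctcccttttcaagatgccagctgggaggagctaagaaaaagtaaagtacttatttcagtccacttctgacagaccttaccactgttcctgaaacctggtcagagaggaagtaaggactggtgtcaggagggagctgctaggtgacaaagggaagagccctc
Tek: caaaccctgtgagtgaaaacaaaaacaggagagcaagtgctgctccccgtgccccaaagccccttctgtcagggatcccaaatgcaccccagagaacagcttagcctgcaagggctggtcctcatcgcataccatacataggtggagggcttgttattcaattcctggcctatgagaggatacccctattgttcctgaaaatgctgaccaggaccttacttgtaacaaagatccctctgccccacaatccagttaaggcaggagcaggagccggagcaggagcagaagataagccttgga
The Rag1 promoter held 2 matches, beginning 81 and 67 bases before the start, the Ly6c2 promoter held 1 at 213 bases before the start, and the other 2 sequences held 0.

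The regions present in 1 list alone were weak and narrow. Fold enrichment, −log10 p, −log10 q and score are the authors' values for each peak, and they were used here only to rank or describe peaks inside a list. Regions only in Flt3-ITD/Runx1-het had a median −log10 p of 17.5 and a median width of 332 bp, and those only in Flt3-ITD 18.7 and 365 bp. Shared regions had medians of 63.7 in Flt3-ITD/Runx1-het and 65.5 in Flt3-ITD, with a width of 630 bp. In the top 10% of the Flt3-ITD list by strength 0.0504% of regions were missing from Flt3-ITD/Runx1-het, and in the bottom 10% 64.2%. The same shares of the Flt3-ITD/Runx1-het list missing from Flt3-ITD were 0.0370% and 68.9%. Using equal numbers of peaks, the 119192 strongest of each list, removed 1988 Flt3-ITD peaks and left 14185 regions (15.2%) only in Flt3-ITD/Runx1-het, 12308 (13.2%) only in Flt3-ITD and 66909 (71.6%) shared.

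**Figure D1:**
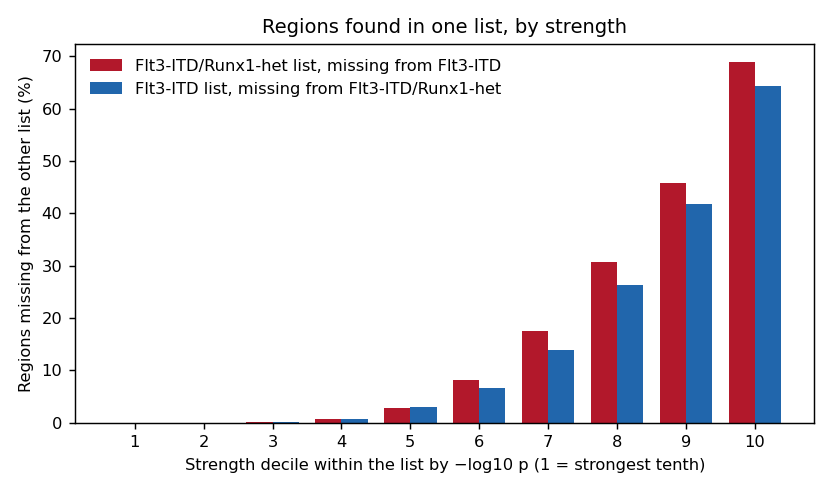
Share of each list's regions with no peak in the other list (y axis, %), by decile of strength within the list (x axis, decile 1 is the strongest by −log10 p). Under 1% of the regions of deciles 1 to 4 are missing from the other list, and 68.9% and 64.2% of those of decile 10.

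Many of the regions in 1 list were seen in no other list. Of the 14182 regions only in Flt3-ITD/Runx1-het, 4094 (28.9%) were absent from all of the other 7 lists, against 2104 (16.9%) of the 12470 only in Flt3-ITD. Looked up in the lists without Flt3-ITD, the regions only in Flt3-ITD/Runx1-het were in neither wildtype nor Runx1-het in 48.9%, in both in 20.9%, in Runx1-het alone in 21.0% and in wildtype alone in 9.22%. Regions only in Flt3-ITD gave 37.3%, 28.3%, 22.9% and 11.6% in the same order. Presence in Runx1-het without wildtype was thus as common for regions lost with Runx1-het as for those gained with it. The Runx1-het list is also the longer of the pair, with 124657 peaks against 110352 in wildtype.

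Strong regions missing from 1 list were few. A region was called strong when its best −log10 p lay in the top 25% of its own list. This left 4 strong regions only in Flt3-ITD/Runx1-het (0.00428% of all regions) and 8 only in Flt3-ITD (0.00855%). The 4 lay at the small GTPase gene Rasl11b (−log10 p 335.7), 45697 bp from Car8 (329.3), inside the phospholipase C-like gene Plcl1 (319.2) and 4305 bp from Serp1 (168.8), a gene of protein folding in the endoplasmic reticulum. Each was present in the other 6 lists, so each was missing from set-1 Flt3-ITD alone. The strongest of the 8 was at the promoter of Polrmt, the mitochondrial RNA polymerase (308.0), followed by 2 regions with no protein-coding gene within 100 kb (271.5 and 266.1). Clba1, a clathrin-binding adaptor gene, followed at 255.2, with Rbfox1, a neuronal splicing regulator (132.0), Osr1, a mesodermal transcription factor (123.9), the cation channel gene Trpc6 (121.5) and Vwc2l (120.0) after it. Polrmt, Clba1, Osr1, Vwc2l and the region at 266.1 had a peak in every list but Flt3-ITD/Runx1-het. Polrmt lay at percentiles 83.4 to 95.3 of the lists that held it. Rbfox1 was the rarest of the 8 regions, with a peak only in the Flt3-ITD lists of set 1 and set 2. Why a region strong in other lists had no peak in 1 list was not tested. The counts were again 4 and 8 (0.00857%) with equal numbers of peaks. Just below the limit were Lyg2 in Flt3-ITD/Runx1-het (−log10 p 106.6) and Ism1 in Flt3-ITD (108.3).

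Shared regions were compared by their strength in each list. Each of the 66909 regions shared with equal numbers of peaks was ranked by its best −log10 p in each list, as a percentile from 0 to 100 over the same regions, and the shift is the percentile in Flt3-ITD/Runx1-het minus that in Flt3-ITD. The percentiles of the 2 lists had a Spearman correlation of 0.914 across regions, which share their libraries and are not independent replicates. The shift had an SD of 11.9 points over regions, ran from −77.5 to 72.9 points and was within 10 points for 66.9% of regions. A shift of 25 points or more was called a rise or a fall. There were 1727 rises (2.58%) and 1834 falls (2.74%), and ranking with all peaks called the same 1727 and 1834 regions. The members nearest to the limit were at 25.003 and 24.9993 points for rises and at −25.0075 and −24.9761 for falls. A percentile below 25 cannot fall by 25 points nor one above 75 rise by as much, so 1180 of the rises came from Flt3-ITD percentiles below 25 and 84 of the falls from those above 75. The fold enrichment moved the same way in all 1727 rises and in 1833 of the 1834 falls. By rank of fold enrichment, 1207 of the rises and 1376 of the falls also shifted by 25 points or more.

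**Figure D2:**
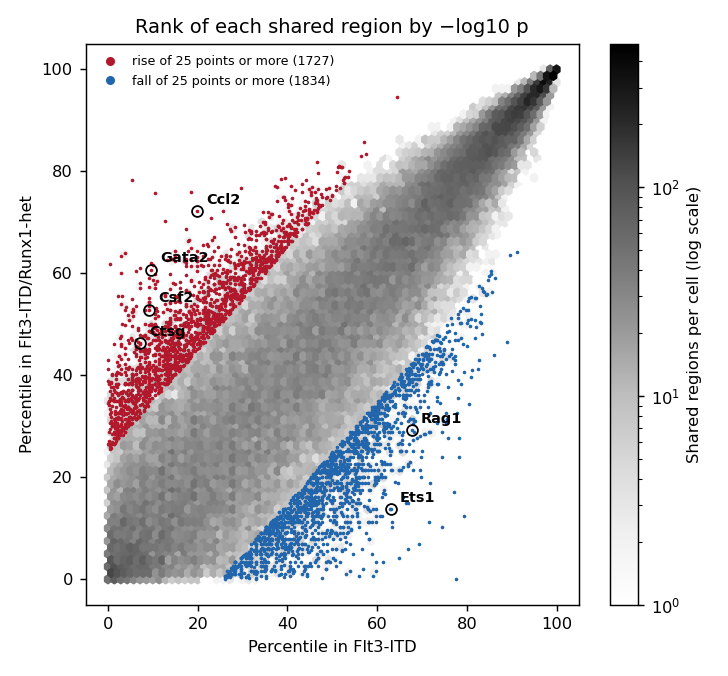
Percentile of each of the 66909 shared regions by −log10 p in Flt3-ITD (x axis) and Flt3-ITD/Runx1-het (y axis), with the number of regions per cell in grey on a log scale. Red and blue points are the 1727 rises and 1834 falls of 25 points or more, and circles mark the region of largest shift at 6 genes described in the text.

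The region with the largest rise lay inside Trhr, the receptor of thyrotropin-releasing hormone. Its −log10 p was 17.8 in Flt3-ITD and 148.7 in Flt3-ITD/Runx1-het, a shift of 72.9 points from percentile 5.32 to 78.2. The next 3 rises were inside Hdac4, a class IIa histone deacetylase (10.8 against 86.9, 61.3 points), 17602 bp from the actin regulator gene Enah (15.1 against 90.9, 60.4 points), and inside the integrin activator gene Fermt2 (15.96 against 92.7, 60.4 points). These 4 regions had a peak in both lists compared here and in none of the other 6. The zinc finger gene Zbtb49 followed with 57.4 points (29.8 against 136.9). Its region was weak only in set-1 Flt3-ITD and set-2 wildtype, at percentiles 28.9 and 41.3 of all regions of those lists, and between 64.8 and 80.4 in the other 6.

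The monocyte chemokine gene Ccl2 held a rise of 52.3 points. Its −log10 p was 30.9 in Flt3-ITD and 119.4 in Flt3-ITD/Runx1-het. In percentiles of each list's own regions it was at 23.8 in set-1 wildtype, 51.4 in Runx1-het, 30.2 in Flt3-ITD and 77.3 in Flt3-ITD/Runx1-het. In set 2 it was at 39.8 in wildtype, 37.6 in Flt3-ITD, 75.3 in NUP98-HOXD13 and 80.8 in its double mutant with Flt3-ITD. The region was therefore higher in the 4 lists with Runx1-het or NUP98-HOXD13 than in the wildtype and Flt3-ITD lists of the same set. The other named rises were at or near Cacng3 (57.1 points), Htr1f (54.2), Sobp (53.3) and Padi1 (52.3), the last a peptidylarginine deiminase gene.

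The largest named fall lay inside Celf4, a neuronal RNA-binding protein gene, with −log10 p 130.3 in Flt3-ITD and 21.5 in Flt3-ITD/Runx1-het (−64.2 points). In its list percentiles Celf4 was between 72.1 and 80.7 in 6 lists, at 54.7 in NUP98-HOXD13/Flt3-ITD and at 20.2 in Flt3-ITD/Runx1-het. This region was thus weakest in Flt3-ITD/Runx1-het among the 8 lists. Efna5, which encodes an ephrin ligand, showed 84.3 against 12.1 (−58.3 points). Its percentiles were 59.96 in wildtype, 41.6 in Runx1-het, 66.3 in Flt3-ITD and 5.29 in Flt3-ITD/Runx1-het, and 60.6 to 75.4 in the 4 lists of set 2. Pdlim3, a muscle LIM protein gene, fell in rank by 60.2 points (144.1 against 27.6) and was at 64.5 in wildtype but 18.7 in Runx1-het. In NUP98-HOXD13, Pdlim3, Irx4 (−60.3), Rbfox1 (−54.7) and Nme7 (−53.2) were also over 25 points lower in list percentile than in set-2 wildtype, and Spata16 (−60.7) and Olfr308 (−62.5) had no peak. The remaining falls, near Tnp1 (−58.3) and the mucin gene Muc16 (−54.3), lay at 69.8 and 84.2 there, against 68.7 and 89.9 in set-2 wildtype.

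**Figure D3:**
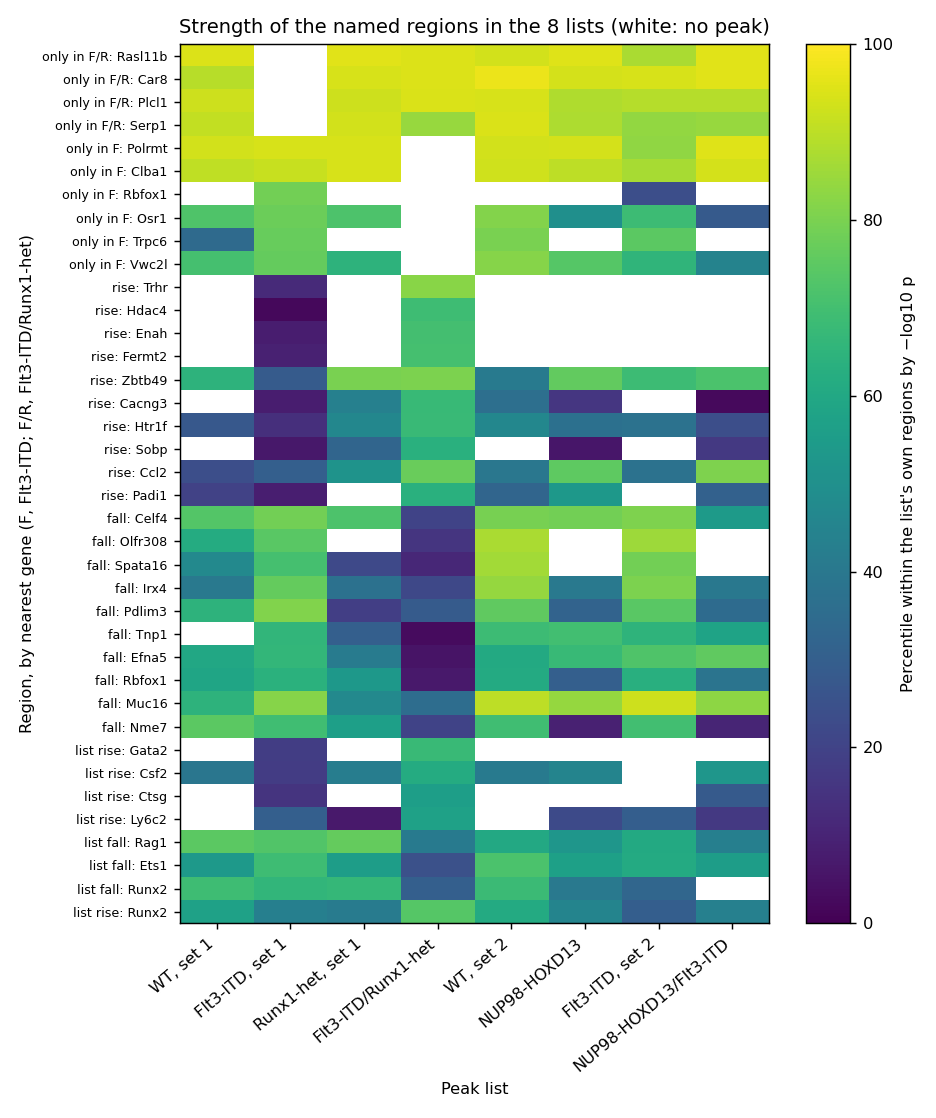
Percentile of each named region among its own list's regions by −log10 p (colour, white where the list has no peak), for regions in rows and the 8 lists in columns. The top rows are strong regions of 1 list (2 without a gene are not drawn), followed by the 10 rises, the 10 falls and 8 regions of listed genes. The Trhr, Hdac4, Enah, Fermt2 and Gata2 regions are coloured only in the 2 set-1 lists that carry Flt3-ITD.

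At the Runx1 gene itself 29 regions were assigned, of which 19 were shared, 7 were only in Flt3-ITD/Runx1-het and 3 only in Flt3-ITD. Over all protein-coding genes 15.0% of regions were only in Flt3-ITD/Runx1-het and 12.8% only in Flt3-ITD. The 7 were weak, with −log10 p from 9.41 to 28.5, and so were the 3, from 7.33 to 16.9. Shared regions had medians of 63.7 in Flt3-ITD/Runx1-het and 65.5 in Flt3-ITD. A region was assigned to the nearest protein-coding gene within 100 kb. None of the 19 shared Runx1 regions shifted by 25 points, and their shifts ran from −21.8 to 18.8 with a median of 0.34. A heterozygous deletion cannot be checked in a peak list, since no read counts over the gene were used. The 8 regions of Flt3 were all shared, with a median shift of −5.02 and a range from −17.3 to 2.63.

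The gene lists described next share some members, so 1 region can count in several of them. The weaker Rag1 promoter region, for example, counts in the lymphoid priming, B cell and RUNX1 target lists. Granulocyte and monocyte genes had more regions only in Flt3-ITD/Runx1-het than only in Flt3-ITD. Of 169 regions assigned to the 26 listed genes, 37 (21.9%) were only in Flt3-ITD/Runx1-het and 16 (9.47%) only in Flt3-ITD. Over all protein-coding genes these shares were 15.0% and 12.8% of 86326 regions. Of the 116 shared regions of the list 8 rose (6.90%) and 2 fell (1.72%), where 2.56% and 2.57% of all 62322 shared regions with a gene did. The median shift was 3.62 points against 0.15 over all genes. F13a1, the coagulation factor XIII subunit gene of monocytes and platelets, held 7 regions only in Flt3-ITD/Runx1-het and 0 only in Flt3-ITD, with −log10 p from 7.97 to 34.6. Cebpb, a transcription factor of granulocytes and macrophages, held 6 and 0, from 1.58 to 44.2. Irf8, which directs monocyte and dendritic cell fate, held 8 and 3. These regions were weak, none reaching the top 25% of its list. Most of the list's 37 regions only in Flt3-ITD/Runx1-het thus came from 3 of its 26 genes (7, 6 and 8). The same 3 genes held 0, 0 and 3 of the 16 only in Flt3-ITD, so the imbalance of the list rested largely on them.

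Among the shared regions of granulocyte and monocyte genes, a region 2544 bp from Ctsg, the neutrophil protease cathepsin G, went from −log10 p 19.7 in Flt3-ITD to 58.3 in Flt3-ITD/Runx1-het (39.2 points). Apart from these 2 lists it had a peak only in NUP98-HOXD13/Flt3-ITD. The Ly6c2 promoter printed above rose by 28.0 points (30.9 against 60.5), and had no peak in either wildtype list. Itgam, the CD11b integrin subunit gene, held a rise of 26.9 points, and a region inside Spi1, the gene of the myeloid and B cell factor PU.1, one of 26.3 (13.7 against 37.4). Cebpa, the granulocytic transcription factor gene, held a rise of 25.97 points 4899 bp away, and Irf8 one of 25.3 at 67886 bp. The single region of Elane, neutrophil elastase, shifted by 20.8 points, under the limit. Not all members moved this way. A region of the Fc receptor gene Fcgr3 fell by 37.0 points (74.5 against 28.4). Cebpb had 2 rises and 1 fall, at 36640 to 74570 bp from the gene. The shared regions of S100a8 and S100a9 had medians of −6.28 and −11.4.

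Gata2, which encodes a transcription factor of stem, mast and megakaryocytic cells, had the largest rise among all listed genes. The region lies 41069 bp from the gene and contains the Gm38856 promoter printed above. Its −log10 p was 21.8 in Flt3-ITD and 84.5 in Flt3-ITD/Runx1-het (51.1 points), and the other 6 lists had no peak there. Mast cell, basophil and eosinophil genes together had 5 rises (7.94%, against 2.56% over all genes) and 0 falls (against 2.57%) in 63 shared regions. Besides Gata2 these were 3 regions of Ccr3, the eotaxin receptor gene (25.6 to 32.4 points), and 1 near Mitf, a mast cell and melanocyte factor (29.7). Of the list's 78 regions, 9 (11.5%) were only in Flt3-ITD/Runx1-het and 6 (7.69%) only in Flt3-ITD. Both shares were below the 15.0% and 12.8% over all genes.

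Megakaryocyte and platelet genes, among which RUNX1 has known targets, had 25 of 139 regions (17.99%) only in Flt3-ITD/Runx1-het and 11 (7.91%) only in Flt3-ITD, against 15.0% and 12.8% over all genes. Of 103 shared regions 3 rose (2.91%, near the 2.56% of all genes) and 0 fell (all genes 2.57%). Itgb3, the platelet fibrinogen receptor subunit gene, held 2 of the rises (36.0 and 26.5 points) and the tetraspanin gene Cd9 the third (25.2). Erythroid genes had 1 rise (0.85%, all genes 2.56%) and 3 falls (2.56%, all genes 2.57%) in 117 shared regions. The rise and 2 of the falls were regions of Bcl11a, which is also in the lymphoid priming list. The fall at Lmo2, an adaptor of stem cell and erythroid transcription factors, was 36.8 points (54.0 against 17.1).

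Lymphoid priming genes had the opposite balance to the granulocyte and monocyte list. Of their 271 regions 35 (12.9%) were only in Flt3-ITD/Runx1-het and 48 (17.7%) only in Flt3-ITD, against 15.0% and 12.8% over all genes. In the 188 shared regions there were 4 rises (2.13%, all genes 2.56%) and 8 falls (4.26%, all genes 2.57%), with a median shift of −1.08. The promoter region of Rag1, the one with 2 RUNX letter matches, went from −log10 p 105.4 to 38.2 (−38.5 points). Its list percentiles were 74.7 in wildtype, 76.3 in Runx1-het, 73.0 in Flt3-ITD and 40.9 in Flt3-ITD/Runx1-het. The first 3 lay within 4 points of each other, and Flt3-ITD/Runx1-het was below them. In set 2 the same region was at 60.5 in wildtype, 60.9 in Flt3-ITD, 52.4 in NUP98-HOXD13 and 43.3 where that fusion was combined with Flt3-ITD.

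Other lymphoid factors held falls of similar size. They were a region near Ikzf2, the Helios gene (−32.5), and one near Ikzf1, the Ikaros gene (−25.2). Another lay 92909 bp from the chromatin organiser gene Satb1 (−30.2). Ikzf1 also held a rise of 32.0 points. Bcl11a, a lymphoid and globin-switching repressor gene, held a rise of 40.5 points inside the gene. Its falls of 31.1 and 27.4 points lay 85984 and 60768 bp away. Tcf4, an E protein gene of lymphoid and plasmacytoid dendritic cells, held 2 falls and, 94096 bp away, 1 rise. Regions assigned to 1 gene therefore moved in both directions for Bcl11a, Ikzf1 and Tcf4.

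B cell genes differed by measure. Of 125 regions, 28 (22.4%) were only in Flt3-ITD/Runx1-het and 14 (11.2%) only in Flt3-ITD, while of 83 shared regions 2 rose (2.41%) and 5 fell (6.02%), with a median shift of −1.72. The shares over all genes were 15.0%, 12.8%, 2.56% and 2.57% in that order. Bach2, a repressor in lymphoid cells, supplied 12 of the 28, and Ebf1, the B lineage specifying factor, 7. Ebf1 also held a rise of 37.2 points (32.2 against 80.1) and falls of 34.8 and 28.2 points. T and NK cell genes had 26 of 154 regions (16.9%) only in Flt3-ITD/Runx1-het and 20 (12.99%) only in Flt3-ITD. Their 108 shared regions held 0 rises and 0 falls, where 2.56% and 2.57% of those of all genes did, and their median shift was 2.16 points, opposite in sign to that of the lymphoid priming and B cell lists. Housekeeping genes had 0 and 0 in 51.

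Genes known as RUNX1 targets, a list that overlaps the lineage lists, had 50 of 286 regions (17.5%) only in Flt3-ITD/Runx1-het and 41 (14.3%) only in Flt3-ITD, against 15.0% and 12.8% over all genes. Their 195 shared regions held 8 rises (4.10%, all genes 2.56%) and 4 falls (2.05%, all genes 2.57%), with a median shift of 0.25. One rise was 7153 bp from Csf2, the GM-CSF gene (21.6 against 68.5, 43.6 points), and 1 fall lay 57475 bp from Ets1, a lymphoid ETS factor gene (91.9 against 24.6, −49.4 points). The Ets1 region was at percentiles 54.1 to 71.6 in the other 7 lists and at 24.7 in Flt3-ITD/Runx1-het. The family of RUNX and its partners had 19 of 110 regions (17.3%) only in Flt3-ITD/Runx1-het and 10 (9.09%) only in Flt3-ITD, against 15.0% and 12.8% over all genes. Its 81 shared regions held 2 rises and 2 falls (2.47% each), near the shares over all genes. The corepressor gene Cbfa2t3 held a rise of 34.8 points, and its relative Runx1t1 a fall of 26.7. Runx2, a RUNX paralog known from bone and dendritic cells, held a rise of 34.5 (43.3 against 102.6) and a fall of 40.9 (83.1 against 28.8).

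Genes downstream of FLT3 signalling were also followed. STAT5 targets had 5 rises (3.47%, all genes 2.56%) and 1 fall (0.69%, all genes 2.57%) in 144 shared regions and a median shift of 3.43. They had 25 of 194 regions (12.9%) in each list alone. The rises included Ccnd3, a D cyclin gene (37.4 points), Mcl1, a survival factor gene (31.8) and Ccnd1 (30.0), and the fall was at the interleukin receptor gene Il2ra (−30.3). MAPK feedback genes had 6 rises (4.35%) and 3 falls (2.17%) in 138 shared regions and a median shift of −0.22. Phlda1 was the nearest protein-coding gene to 2 of the rises, 67080 and 74332 bp away. The farther was the larger, of 45.5 points (28.4 against 88.4), and overlapped a promoter of Gm30262. The ETS factor gene Etv5 held 1 rise (35.4) and 1 fall (−28.6). Of 136 regions of interferon response genes 18 (13.2%) were only in Flt3-ITD/Runx1-het and 7 (5.15%) only in Flt3-ITD, both shares below the 15.0% and 12.8% over all genes. Their 111 shared regions held 2 rises (1.80%) and 1 fall (0.90%), with rises near Ifit2 (28.5) and Psmb9 (27.1) and a fall at Bst2 (−26.1).

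Stem cell self-renewal genes had 3 rises (1.49%) and 5 falls (2.48%) in 202 shared regions, the falls at the share of all genes (2.57%). Among the falls were Tek at −28.9 (44.3 against 16.6) and the endothelial adhesion gene Esam at −35.6. The Tek list percentile was 38.7 in wildtype, 46.8 in Runx1-het, 43.8 in Flt3-ITD and 12.6 in Flt3-ITD/Runx1-het. HOX and MEIS genes had 27 of 123 regions (21.95%) in each list alone, above the 15.0% and 12.8% of all genes. Their 69 shared regions held 0 rises (all genes 2.56%) and 1 fall (1.45%, all genes 2.57%), at Meis2 (−32.7). Stroma and endothelium genes had 1 rise (1.14%) and 5 falls (5.68%) in 88 shared regions, where all genes had 2.56% and 2.57%. The falls included Cdh5 (−29.2) and regions 3924 and 97495 bp from Col1a2 (−45.3 and −30.2). Dendritic cell genes had 5 rises (4.31%) and 4 falls (3.45%) in 116, blood transcription factors 8 (3.12%) and 7 (2.73%) in 256, and myeloid leukaemia genes 3 (2.04%) and 2 (1.36%) in 147.

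**Figure D4:**
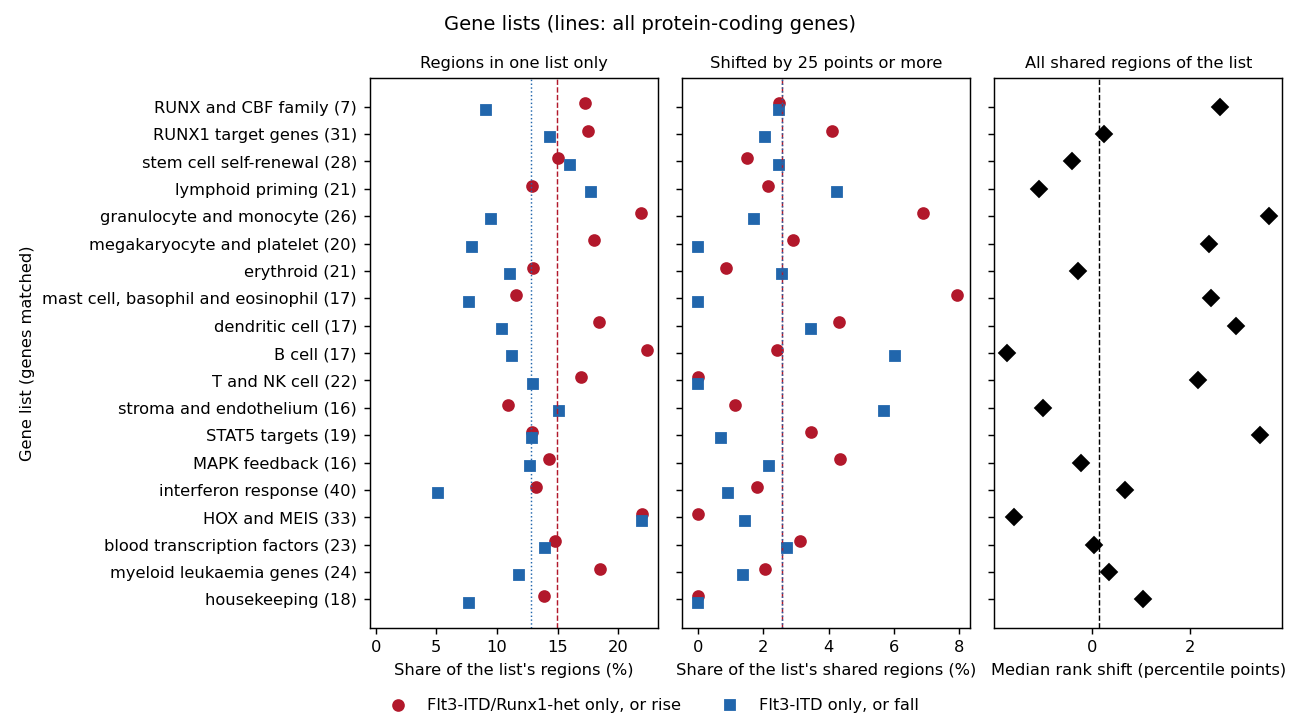
For 19 gene lists (rows, genes matched in brackets): share of the list's regions found in 1 list alone (left, %), share of its shared regions that rose or fell by 25 points or more (middle, %) and median rank shift (right, points). Lines give all protein-coding genes. Granulocyte and monocyte genes show 21.9% against 9.47% in the left panel, and lymphoid priming genes 12.9% against 17.7%.

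With equal numbers of peaks in each pair, the same regions were then followed in 4 pairs of lists that share no list with Flt3-ITD/Runx1-het against Flt3-ITD. Runx1-het against wildtype, the same lesion without Flt3-ITD, gave shifts whose correlation with those with Flt3-ITD was weak (Pearson 0.06, Spearman 0.05, 55411 regions in all 4 lists). These points share base composition, width and strength between pairs. Of the 1229 rises measurable there, 63 (5.13%) also rose by 25 points with Runx1-het alone, against 1.85% of all regions. Of 1539 falls 92 (5.98%) also fell, against 1.77%. In the opposite direction, 51 of these falls (3.31%) rose by 25 points there, and 20 of the rises (1.63%) fell. The share of falls that rose was thus also above the 1.85% of all regions. Pdlim3 (−50.2), Nme7 (−31.0) and Muc16 (−29.4) were among the falls seen without Flt3-ITD, and Mllt3, a stem cell elongation factor gene (37.5 against 26.9 with Flt3-ITD), among the rises.

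NUP98-HOXD13 against set-2 wildtype gave correlations of 0.21 and 0.22 over 55276 regions, and NUP98-HOXD13/Flt3-ITD against set-2 Flt3-ITD 0.19 and 0.19 over 43969. Of the falls, 17.4% also fell in NUP98-HOXD13, against 5.16% of all regions, and of the rises 11.1% also rose, against 4.43%. In the opposite direction, 3.54% of the falls rose there and 3.38% of the rises fell. The pair of wildtype lists, which differ in set and not in genotype, gave −0.15 and −0.14 over 55445 regions. In it, 15.97% of the falls were stronger in set 2 by 25 points or more, against 3.75% of all regions. Another 2.40% of the falls were weaker there by as much, and the rest did not pass the limit. Set-2 wildtype is in both this pair and NUP98-HOXD13 against wildtype, with opposite sign, so their values are not separate observations. Set-1 wildtype is likewise the base of both this pair and Runx1-het against wildtype. The part of whatever separates the sets in the rises and falls was not tested.

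Presence in the other lists differed between rises and falls in most lists but not in all. Of the 1834 falls 95.9% had a peak in set-2 wildtype and 88.6% in set-1 wildtype, against 80.7% and 75.8% of the 1727 rises. For falls and rises the shares were 92.1% and 87.1% in Runx1-het, and 81.4% and 76.9% in NUP98-HOXD13. They were 73.6% and 55.2% in set-2 Flt3-ITD, and alike in NUP98-HOXD13/Flt3-ITD, at 79.3% and 79.5%. All 8 lists held a peak in 52.4% of the falls, 34.9% of the rises and 61.4% of all shared regions.

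Falls were more frequent far from the starts in the promoter table than near them. Within 1 kb of a transcription start 1.28% of shared regions rose and 1.23% fell, and between 1 and 10 kb 3.34% and 2.42%. Beyond 100 kb from any start 2.04% rose and 5.27% fell, and the median shift went from 0.58 points within 1 kb to −1.91 beyond 100 kb. Chromosome 18 has no promoters in the table and is not in these values. The table also lacks promoters of some other genes, so a region inside a gene can count as far from a start. The region inside Trhr, for example, lay 864587 bp from the nearest start in the table. The part of these gaps in the values was not tested. In the other pairs the median shift beyond 100 kb was 0.55 points for Runx1-het against wildtype, 2.44 for set-2 against set-1 wildtype, −1.41 for NUP98-HOXD13 against wildtype and −5.52 for NUP98-HOXD13/Flt3-ITD against Flt3-ITD. Regions beyond 100 kb were thus not lower with Runx1-het in the absence of Flt3-ITD, and they differed between the wildtype lists too. Whether read depth or signal-to-noise of the lists moves with distance was not tested.

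**Figure D5:**
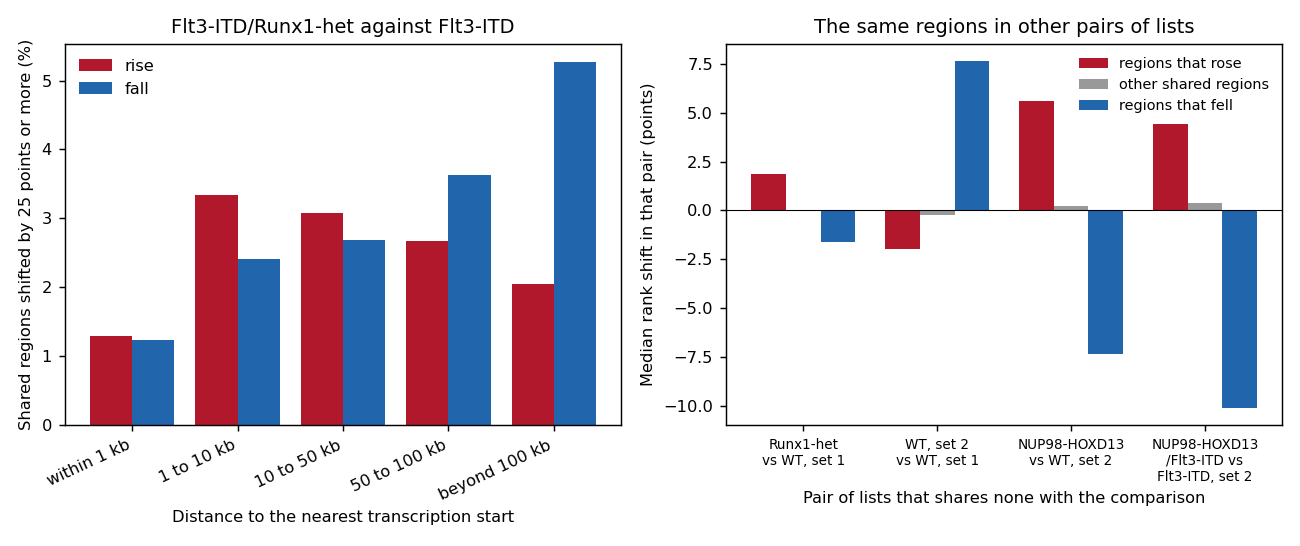
Left, share of shared regions that rose or fell by 25 points or more (y axis, %) by distance to the nearest transcription start in the promoter table (x axis). Right, median rank shift (y axis, points) of the regions that rose, fell or did neither, in 4 pairs of lists that share no list with the comparison. Falls exceed rises beyond 50 kb. Regions that fell have a median of 7.62 points in the wildtype pair and −7.34 in NUP98-HOXD13 against wildtype. Set-2 wildtype is in both of these pairs, with opposite sign.

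At promoters, 154 windows of 138 genes overlapped a rise and 158 windows of 135 genes a fall. The RUNX letters TGTGGT, on either strand, stood in 16.9% of promoters in rises and 17.1% in falls, against 12.7% in promoters of other shared regions, 20.3% in promoters with no peak in either list and 16.7% in all. The ETS letters GGAAGT stood in 40.9% of promoters in rises, 24.1% in falls and 27.6% in other shared promoters. The STAT letters TTCNNNGAA stood in 16.2%, 9.49% and 6.47%, and the E-box CAGCTG in 12.99%, 24.7% and 15.1%. RUNX letters were thus about as frequent in promoters of rises as of falls. The variant RUNX letters TGCGGT stood in 10.4% of promoters in rises, 9.49% in falls and 10.2% in other shared promoters. At least 2 matches to TGTGGT stood in 1.30%, 1.90% and 1.11%, against 1.79% of all promoters. Base composition moved with these classes, at a median GC of 57.3% in rises, 57.2% in falls and 61.7% in other shared promoters, and its part in the motif shares was not tested. Examples picked after their values were seen, and not standing for the rest, were the promoters of the inflammasome gene Nlrc4 (32.2 points) and the myeloid receptor gene Cd300a (25.9) among the rises. Among the falls they were those of the fetal RNA-binding protein gene Lin28b (−25.8), the neural factor gene Pou3f2 (−27.8) and Gad2 (−26.6).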

How the data were processed

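The authors deposited 1 peak list per group, each for 2 samples. Reads were processed with Bowtie2 and MACS2 on mm10/GRCm38, per the submitters' processing notes. Not given in the sources used here: versions, thresholds, read shifting, duplicate removal and how the 2 samples were combined. The authors' deposited values per peak were fold enrichment (a ratio), −log10 p-value, −log10 q-value and a score of at least 413. Read depth is unknown.

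Peaks on chromosomes 1 to 19 overlapping by at least 1 bp were merged (Python 3.11.15, pandas 2.3.3, numpy 2.4.6, scipy 1.17.1). Percentiles of the best −log10 p were compared over shared regions. Genes and promoters were those of RefSeq GRCm38.p6. The gene table gives no strand, exons or introns, so positions are distances to gene spans and to starts in the promoter table. With 1 list per group no test was made. The code was tested on simulated data. Named were up to 10 strong regions of each list alone, the 10 largest rises and falls (1 per gene within 100 kb, fold enrichment moving the same way, which left out Defb47), up to 4 regions of each gene list, Flt3 and Runx1. Further regions were chosen after their values were seen, for roles in blood cells. The comparison, gene lists and rules were chosen with earlier results of these data known.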

Additional observations from a re-analysis of the deposited data

Results flagged for a closer look

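A region inside Runx2 (chromosome 17, 44783062 to 44783542) shifted in opposite directions with Runx1-het in the presence and absence of Flt3-ITD. It was 34.5 points higher in Flt3-ITD/Runx1-het than in Flt3-ITD and shifted by −25.63 points in Runx1-het against wildtype. Its −log10 p was 60.2 in wildtype, 38.1 in Runx1-het, 43.3 in Flt3-ITD and 102.6 in Flt3-ITD/Runx1-het. With 1 list per group the difference between the shifts was not tested.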

How the results depend on the processing

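The counts of regions in 1 list alone stayed within 1.5 times under equal numbers of peaks, merging of peaks up to 500 bp apart (12441 only in Flt3-ITD/Runx1-het and 10759 only in Flt3-ITD) and −log10 q of at least 5 (13846 and 12221). The strong regions depended on the definition. With the top 50% called strong they numbered 302 only in Flt3-ITD/Runx1-het and 314 only in Flt3-ITD, and with strength by fold enrichment 63 and 68, instead of 4 and 8. Rises and falls numbered 1882 and 2148 by fold enrichment, 1550 and 1667 with peaks up to 500 bp apart merged, and 1628 and 1656 for regions with 1 peak in each list. The 20 named rises and falls were chosen to pass 25 points with all peaks and to move the same way by fold enrichment. Those 2 checks could therefore not fail. All 20 also stayed past 25 points by rank of fold enrichment and after merging. The 15 that had 1 peak in each list stayed past 25 points among such regions. Counts for granulocyte and monocyte genes, under alternatives chosen after seeing the data, were 31 to 37 regions only in Flt3-ITD/Runx1-het and 16 only in Flt3-ITD. No paired analysis was possible because each group has 1 peak list for its 2 samples. No sample could be left out for the same reason. Since weak regions make up most of those in 1 list alone, absence of a peak there was not separable from a peak just under the authors' limit.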

Other observations

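Rises and falls within 100 kb of the next of the same direction formed runs, most of them of 1 region, with 9 runs of 4 or more rises and 5 of 4 or more falls. The densest run of rises lay at Lyz1, a lysozyme gene of macrophages, and Cpsf6, where 4 of 6 shared regions in 78.5 kb rose and the median shift was 29.1 points. The longest lay over Mapk9, Rasgef1c, Rnf130, Tbc1d9b and Sqstm1 on chromosome 11 with 6 rises in 23 shared regions. The MHC class II stretch from Brd2 to H2-Eb1, with Psmb9, H2-Ob and H2-Aa, held 5 rises in 27. A stretch over Fos, Jdp2 and Batf, genes of AP-1 factors, held 4 in 16. Runs of falls lay at Efna5 (5 of 10 shared regions, median −22.5), Pid1 (4 of 7, −27.6), Trpc6 (4 of 6, −32.2) and Ppp2r2b (4 of 5, −33.0). A run of 5 falls in 16 shared regions began 60768 bp from Bcl11a. Of all chromosomes, chromosome 11 held rises in 3.61% and falls in 2.25% of its shared regions, and chromosome 18 rises in 2.10% and falls in 3.62%.

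The largest fall in rank by −log10 p, at the defensin gene Defb47, was the only one in which fold enrichment moved the other way. Its −log10 p was 145.8 in Flt3-ITD and 6.93 in Flt3-ITD/Runx1-het, while its fold enrichment was 24.4 and 27.0.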
